A study of Mus musculus with 10 samples.

Results

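The regions of histone H3 acetylated at lysine 27 (H3K27ac) were compared between mouse cortical neurons depolarised with KCl and untreated cortical neurons. Every region of chromosomes 1 to 19 in the 2 H3K27ac lists was taken, 57370 from KCl-treated neurons and 64770 from untreated neurons. These 122140 regions were part of 651012 in the 8 lists of the series, which also held H3K4me1, the transcription factor subunit Gtf3c1 and the RNA polymerase III subunit Rpc155. Both groups were cortical neurons in primary culture from C57BL/6J mice, used at 6 days in vitro, and serum had been lowered to 3% for the preceding night. The KCl group then received 50 mM KCl for 45 min, and the untreated group received nothing further. Chromatin was immunoprecipitated from whole cultures, so the cell types in a dish cannot be told apart. Although 3 biological replicates per condition are stated in the design text, each condition has 1 list. Differences between conditions are therefore given without p-values, since the spread between replicates is unknown. Intervals on shares are exact binomial (Clopper-Pearson) 95% intervals that cover counting error only, and neighbouring regions are not independent.

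H3K27ac is laid down by the acetyltransferases CBP and p300 on nucleosomes beside active promoters and enhancers. Raised potassium outside a neuron depolarises it and opens voltage-gated calcium channels. The calcium that enters switches on CREB, SRF and MEF2 factors, which drive immediate-early genes such as Fos and Arc within minutes and a later wave of secreted and synaptic genes. The comparison asks where the acetylated regions lay after KCl and where they lay without it.

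The neuronal label was checked against markers. All 10 pan-neuronal markers (among them Map2, Tubb3 and Rbfox3) and all 13 glutamatergic markers (among them Neurod6, Tbr1 and Fezf2) had a region within 1 kb of a gene end in both lists, where the share over all protein-coding genes was 58.2% with KCl and 53.6% in untreated neurons. Of 12 genes of other tissues, 1 (Apoa1) had one, in both lists. Microglial markers had a gene-end region in 0 of 10 with KCl and in 1 of 10 in untreated neurons (Trem2), and Cx3cr1, P2ry12 and Tmem119 had no covered base in either list. Of 8 oligodendrocyte lineage markers only Mbp had one, in both lists, and Olig1, Olig2 and Sox10 had no covered base. Endothelial markers had one in 1 of 6 in each list, Flt1 with KCl and Cdh5 in untreated neurons. Astrocyte markers had one in 5 of 9 with KCl and in 6 of 9 in untreated neurons, and progenitor markers in 6 of 7 with KCl and in 4 of 7 in untreated neurons. The summed covered length of these lists was 32.6 kb with KCl and 31.5 kb in untreated neurons for astrocytes, and 19.6 kb with KCl and 10.7 kb in untreated neurons for progenitors. It was 18.8 kb with KCl and 13.2 kb in untreated neurons for the oligodendrocyte lineage, 6.49 kb with KCl and 7.67 kb in untreated neurons for endothelium, and 2.95 kb with KCl and 1.51 kb in untreated neurons for microglia. The part of other cell types in the results below was not tested.

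KCl gave fewer regions over nearly the same length of genome. The KCl regions covered 70.9 Mb and the untreated regions 70.5 Mb. Median width was 707 bp with KCl and 665 bp in untreated neurons, and the 90th percentile was 2747 bp with KCl and 2294 bp in untreated neurons. The order of the medians depended on list length: with the untreated list shortened to its 57370 strongest regions by −log10 p, the medians were 707 bp with KCl and 748 bp in untreated neurons. There were 1298 KCl regions and 1069 untreated regions of at least 5000 bp, which covered 10.0 Mb with KCl and 8.06 Mb in untreated neurons. The widest regions reached 53512 bp with KCl and 34131 bp in untreated neurons. Fold enrichment, the authors' ratio of signal at the summit over background, had a median of 3.24 with KCl and 3.17 in untreated neurons. Its 90th percentile was 9.18 with KCl and 6.60 in untreated neurons and its maximum 25.0 with KCl and 18.8 in untreated neurons, so the lists differed most in their strongest regions. The lists hold no read counts. The spacing of the fold enrichment values gave a background level of 6.40 fragments per position for the KCl list and 6.88 for the untreated list, and its part in the widths was not tested.

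Regions present in 1 list alone were mostly narrow and weak. Of the KCl regions, 18293 (31.9%, 31.5 to 32.3) overlapped no untreated region by even 1 bp, and 24303 untreated regions (37.5%, 37.1 to 37.9) overlapped no KCl region. With both lists at 57370 regions this order turned, to 19737 in the KCl list alone and 18866 in the untreated list alone. The regions alone in the KCl list had a median width of 403 bp and those alone in the untreated list 424 bp. The shared regions had medians of 1103 bp in the KCl list and 1007 bp in the untreated list. Median fold enrichment was 2.70 in both classes alone, against 3.78 among shared KCl regions and 3.81 among shared untreated regions. In the weakest decile of each list by −log10 q, 35.1% of KCl regions and 25.4% of untreated regions were shared. In the strongest decile the shares were 99.8% with KCl and 100% in untreated neurons. All regions of 5000 bp or more were shared in both lists.

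The strong end of the alone classes depended on the measure. A fold enrichment of at least 4 was reached by 827 regions of the KCl list alone and by 572 of the untreated list alone, although regions of the untreated list alone were more numerous. By q the order was the other, since a q of 1e-05 or lower was reached by 3530 regions of the KCl list alone (19.3%) and 5217 of the untreated list alone (21.5%). Their highest fold enrichments were 12.6 with KCl and 6.48 in untreated neurons.

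Much of the difference lay in the extent of shared regions. Counting bases, 46.8 Mb lay in both lists and 94.7 Mb in either, a share of 49.4%. The KCl list held 24.2 Mb that the untreated list lacked, of which 15.0 Mb (62.2%) was extension or gap-filling of shared regions and 9.13 Mb was regions of its own. The untreated list held 23.7 Mb of its own, with 11.2 Mb (47.3%) in shared regions and 12.5 Mb in regions alone. Single KCl regions overlapped 2 or more untreated regions, by at least 1 bp each, in 4648 cases, with 9889 overlaps in all. The reverse was seen for 3246 untreated regions, with 7097 overlaps with KCl regions.

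**Figure D1:**
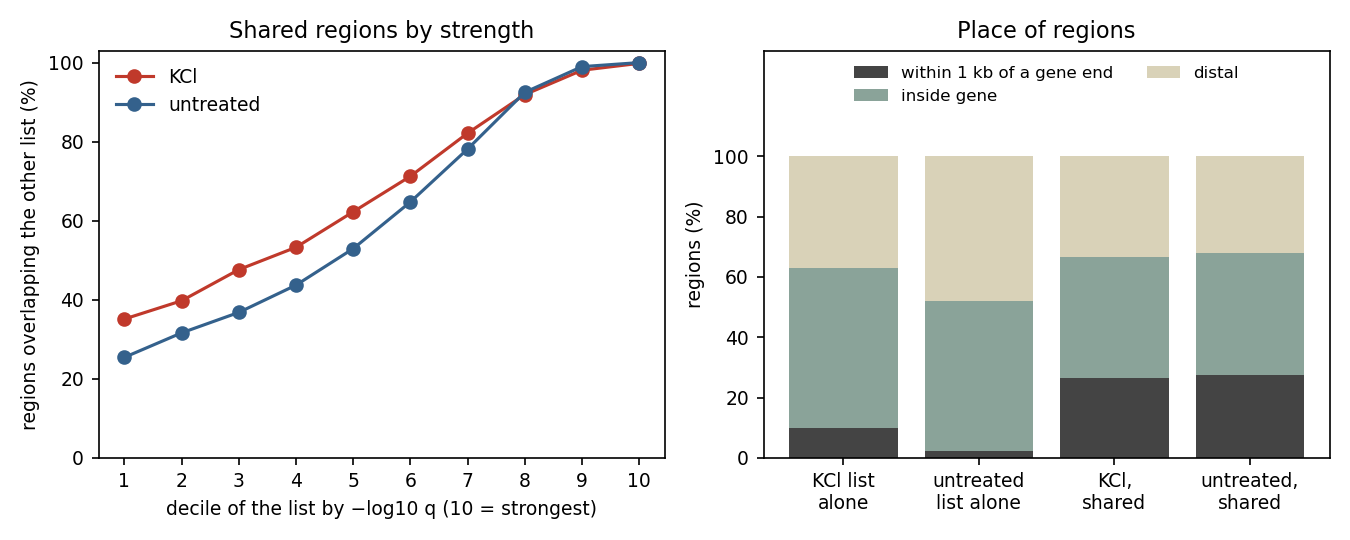
Left, share of H3K27ac regions (%) that overlapped the other list, by decile of each list from the weakest (1) to the strongest (10) −log10 q. Right, where the regions of each class lay, as a share of the class (%). The strongest deciles were 99.8% (KCl) and 100% (untreated) shared, and the gene-end share of the regions alone was 9.95% in the KCl list and 2.25% in the untreated list.

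The lists differed in direction by place. Gene ends, the first or last base of a protein-coding gene and 1 kb on each side, were covered over 16.2 Mb with KCl and 12.6 Mb in untreated neurons, a ratio of 1.29. The rest of the gene bodies was covered over 33.8 Mb with KCl and 33.1 Mb in untreated neurons, a ratio of 1.02. Distal space, outside genes and these windows, was covered over 20.95 Mb with KCl and 24.8 Mb in untreated neurons, a ratio of 0.845. Of the regions alone, 1821 of the KCl list (9.95%, 9.52 to 10.4) and 547 of the untreated list (2.25%, 2.07 to 2.45) touched a gene-end window. Distal regions numbered 6803 (37.2%) in the KCl list alone and 11678 (48.1%) in the untreated list alone. The regions of the KCl list alone were also nearer to genes, with a median of 28115 bp to the nearest gene end against 64631 bp for the untreated list alone. More than 100 kb from any gene end lay 22.3% of the KCl list alone and 38.3% of the untreated list alone.

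The same split was seen among regions that matched 1 to 1, with each pair placed by its KCl region. A wider KCl region reaches a gene-end window more readily, and the part of this in the ratios was not tested. At gene ends, 8604 such pairs had a median width of 1877 bp with KCl and 1380 bp in untreated neurons. The KCl region was the wider in 7400 of them and the narrower in 1202, with a median ratio of 1.32. Their fold enrichment had a median of 8.64 with KCl and 5.97 in untreated neurons, and the median ratio within pairs was 1.39. Inside genes, the width ratio was 0.978 and the fold enrichment ratio 0.997 over 10697 pairs. The 8936 distal pairs had a median width of 722 bp with KCl and 834.5 bp in untreated neurons, with a ratio of 0.922. Of the distal pairs 3888 were wider and 5041 narrower with KCl, and their fold enrichment ratio was 0.962.

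Strand was known for 16457 genes, 79.6% of the 20665 protein-coding genes, which let 5′ and 3′ ends be told apart. A region lay within 1 kb of the 5′ end of 9228 genes (56.1%) with KCl and of 8468 genes (51.5%) in untreated neurons. In 859 genes it was in the KCl list alone and in 99 in the untreated list alone. The start site itself was inside a region in 7514 genes (45.7%) with KCl and 5550 (33.7%) in untreated neurons, with 2083 in the KCl list alone and 119 in the untreated list alone. Active start sites are usually free of nucleosomes and can leave a gap between acetylated flanks. Regions on both sides of the start site and none on it were found in 460 genes with KCl and in 834 genes in untreated neurons. Of those 834 genes, 566 had the start site covered with KCl. Where both lists covered the start site, in 5431 genes, the region had a median width of 2373 bp with KCl and 1745 bp in untreated neurons, and it was wider with KCl in 4788. At 3′ ends the counts were 1893 genes with KCl and 1554 in untreated neurons, with 551 in the KCl list alone and 212 in the untreated list alone.

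The profile around 5′ ends was higher with KCl at each position named here. It was highest 250 bp downstream of the start, with 51.3% of genes with KCl and 45.1% in untreated neurons. The relative gap was wider on the shoulders, with 19.2% with KCl and 11.4% in untreated neurons at 1000 bp upstream and 15.9% with KCl and 9.33% in untreated neurons at 2000 bp downstream. At 10 kb downstream 4.09% of genes had a region with KCl and 3.08% in untreated neurons. Around 3′ ends the profile had no peak at the end itself, where it dipped to 4.96% with KCl and 3.31% in untreated neurons. It stood at 6.03% with KCl and 4.44% in untreated neurons 5000 bp before the end, and at 6.70% with KCl and 4.96% in untreated neurons 2500 bp beyond it.

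**Figure D2:**
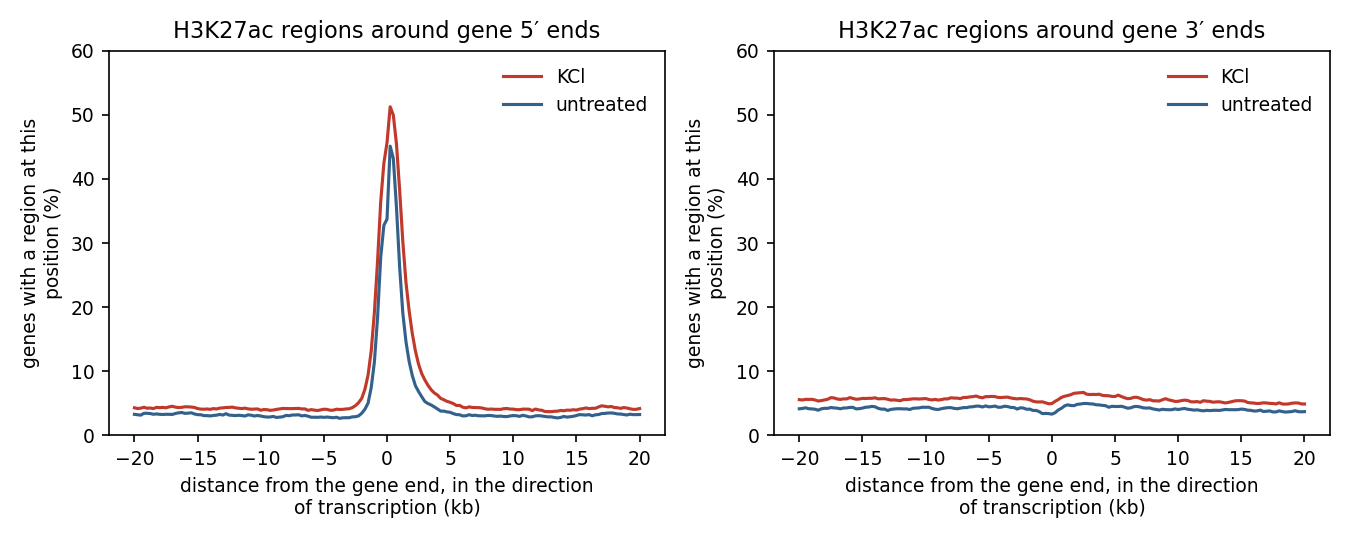
Share of 16457 protein-coding genes (%) with an H3K27ac region at each position around the 5′ end (left) and the 3′ end (right), in steps of 250 bp, with KCl (red) and in untreated neurons (blue). The 5′ peak is higher and broader with KCl, at 51.3% against 45.1% at 250 bp downstream and 15.9% against 9.33% at 2000 bp downstream.

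Gene by gene, 10860 of 20665 protein-coding genes had a region within 1 kb of an end in both lists. It was in the KCl list alone for 1158 genes (5.6%) and in the untreated list alone for 216 (1.05%), and 8431 had none in either. Coverage was then measured over each gene and 5 kb on each side. It was longer with KCl in 11385 genes, shorter in 2913 and equal in 6367. A gene was counted as differing when the longer coverage was at least 1.5 times the shorter and at least 1 kb. By this rule 4730 genes (22.9%) were covered longer with KCl and 649 (3.14%) longer in untreated neurons. Only 12528 of the 20665 genes had 1 kb or more in a list and could meet the rule. Shares of all genes given below therefore include genes that could not meet it, and are lower than among those that could. The genes covered longer with KCl had a median length of 19803 bp, and those covered longer in untreated neurons 106312 bp, beside 17491 bp for all genes.

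Short genes and gene-dense stretches were covered longer with KCl, and long genes and gene-poor stretches were covered less. Covered length by gene length was taken over the gene body alone, without flanks. In 7342 genes under 10 kb the covered length was 4.68 Mb with KCl and 3.27 Mb in untreated neurons, a ratio of 1.43. The ratio was 1.38 in genes of 10 to 30 kb, 1.20 in genes of 30 to 100 kb and 0.991 in genes of 100 to 300 kb. In 533 genes of 300 kb or more the regions covered 8.82 Mb with KCl and 11.2 Mb in untreated neurons, a ratio of 0.790. Of these longest genes 29.5% were covered longer and 67.5% shorter with KCl, counted over the gene and 5 kb on each side. A gene-end region was nevertheless found in 80.9% of them with KCl and in 75.05% in untreated neurons. Genes were then counted in bins of 1 Mb by their midpoint. Bins with no gene midpoint had a ratio of 0.578, those with 1 to 3 genes 0.778, those with 11 to 20 genes 1.15 and those with 21 or more 1.35. Bins without a midpoint can still lie in a long gene, as did the Celf2 bin described below. Coverage was longer with KCl in 207 of the 242 densest bins and in 33 of the 270 bins without a gene midpoint. Chromosome 11, gene-rich, had the highest ratio of any autosome at 1.16, and chromosomes 3 and 1 had the lowest, at 0.928 and 0.929. Whole chromosomes did not all follow gene density. The most gene-poor, 12 and 18 (5.80 and 5.83 genes per Mb), had ratios of 0.973 and 1.01. Chromosomes 2 and 9, with 9.96 and 9.89 genes per Mb, had 0.978 and 0.945.

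**Figure D3:**
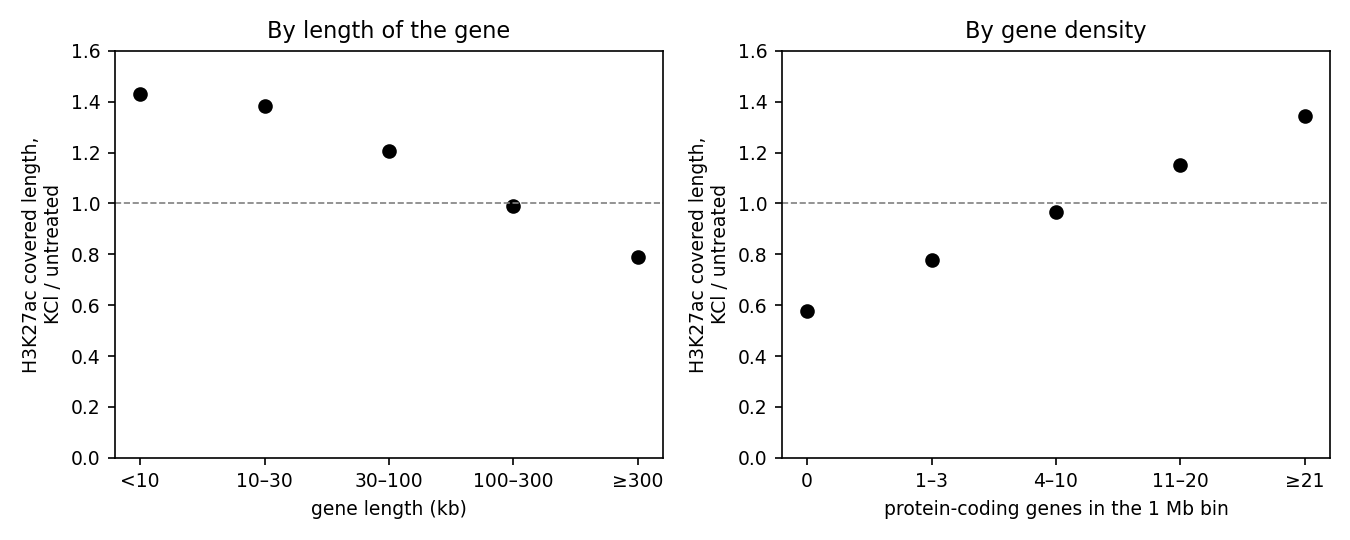
Length covered by H3K27ac regions with KCl divided by that in untreated neurons. Left, coverage of gene bodies by length of the protein-coding gene. Right, coverage of bins of 1 Mb by the number of protein-coding genes with their midpoint in the bin. The dashed line marks equal coverage. The ratio is 1.43 for genes under 10 kb and 0.790 for genes of 300 kb or more. It is 0.578 in bins without a gene midpoint against 1.35 in bins with 21 or more.

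Immediate-early genes, the first genes that neurons switch on after calcium entry, differed between the lists in covered length and hardly in presence. A gene-end region was found in 36 of 36 with KCl and in 35 of 36 in untreated neurons, Egr2 being the exception. Covered length was at least 1.5 times as long with KCl in 24 of 36 and as long in untreated neurons in 0 of 36. Beside this, 4730 of the 12528 genes with at least 1 kb covered in a list met the rule with KCl (22.9% of all genes). It was longer with KCl in 33 and shorter in Ier5, Klf6 and Trib1. Over all 20665 genes it was longer with KCl in 11385, shorter in 2913 and equal in 6367. The median covered length was 7104.5 bp with KCl and 4325 bp in untreated neurons, beside 1674 bp with KCl and 1156 bp in untreated neurons over all genes. On average 63.7% of the body of these genes was covered with KCl and 39.3% in untreated neurons, beside 9.20% with KCl and 6.85% in untreated neurons over all genes.

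Among the transcription factors, Fosb, an AP-1 subunit, had 9.93 kb covered with KCl and 2.75 kb in untreated neurons. Its strongest gene-end regions lay at opposite ends of the gene in the 2 lists. The KCl one had a fold enrichment of 16.9 and stood at the 99.8th percentile of its list, and the untreated one had 3.68 and stood at the 63.7th. The region at Fos, of the same gene family, was 10588 bp wide with KCl and 3337 bp in untreated neurons, while its percentile was 90.3 with KCl and 89.7 in untreated neurons. Fos thus differed in extent and hardly in rank. Junb, another AP-1 subunit, had 11.5 kb covered with KCl and 5.46 kb in untreated neurons. A KCl region of 17229 bp took in the whole gene. Of the EGR zinc finger genes, Egr2 had 4.68 kb covered with KCl and none in untreated neurons, and Egr4 had 5.88 kb with KCl and 1.38 kb in untreated neurons. Egr1 had 5.55 kb with KCl and 2.53 kb in untreated neurons, and Egr3 had 6.49 kb with KCl and 4.21 kb in untreated neurons. Of the nuclear receptor genes, Nr4a1 had 23.0 kb covered with KCl and 8.74 kb in untreated neurons. The KCl regions there were 2, one of them 32072 bp wide, against 7 in untreated neurons. Nr4a2 had 13.7 kb with KCl and 5.17 kb in untreated neurons, and Nr4a3 19.4 kb with KCl and 13.7 kb in untreated neurons. Atf3, a stress-induced factor gene, had 3.54 kb covered with KCl and 0.579 kb in untreated neurons, and Klf4 had 5.23 kb with KCl and 1.11 kb in untreated neurons.

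Other immediate-early genes encode effectors at the synapse or in RNA and signal turnover. Arc, which encodes a capsid-like regulator of AMPA receptor traffic, had 7.07 kb covered with KCl and 1.27 kb in untreated neurons. Per1, a clock gene with CREB-driven transcription, had 19.5 kb covered with KCl and 8.05 kb in untreated neurons, partly counted also for neighbouring Vamp2. Its strongest gene-end regions, which did not overlap, had a fold enrichment of 19.6 with KCl and 4.75 in untreated neurons. Zfp36, whose protein hastens decay of AU-rich mRNAs, had 6.67 kb with KCl and 1.80 kb in untreated neurons. Its strongest gene-end regions, at opposite ends of the gene, stood at the 90.1st percentile with KCl and the 22.4th in untreated neurons. Gadd45b, linked to DNA demethylation, had 7.02 kb with KCl and 1.57 kb in untreated neurons. Some were already broad without KCl. Npas4, a neuron-specific factor of inhibitory synapse formation, had 21.5 kb covered with KCl and 19.1 kb in untreated neurons. Klf6 had 11.3 kb with KCl and 13.8 kb in untreated neurons, and Dusp6, an ERK phosphatase, 7.79 kb with KCl and 7.33 kb in untreated neurons. The percentile of the strongest region at either end was at least 10 points higher with KCl in 11 of the 35 immediate-early genes with one in both lists and lower by as much in 0. Over all 10860 such genes, 17.9% were higher and 3.08% lower by 10 points. The strongest regions of the lists did not overlap in 6 of the 35. Among the other 29 the percentile was higher with KCl by 10 points in 7 and lower in 0, beside 17.4% higher and 2.82% lower over all 10403 genes with overlapping ones.

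**Figure D4:**
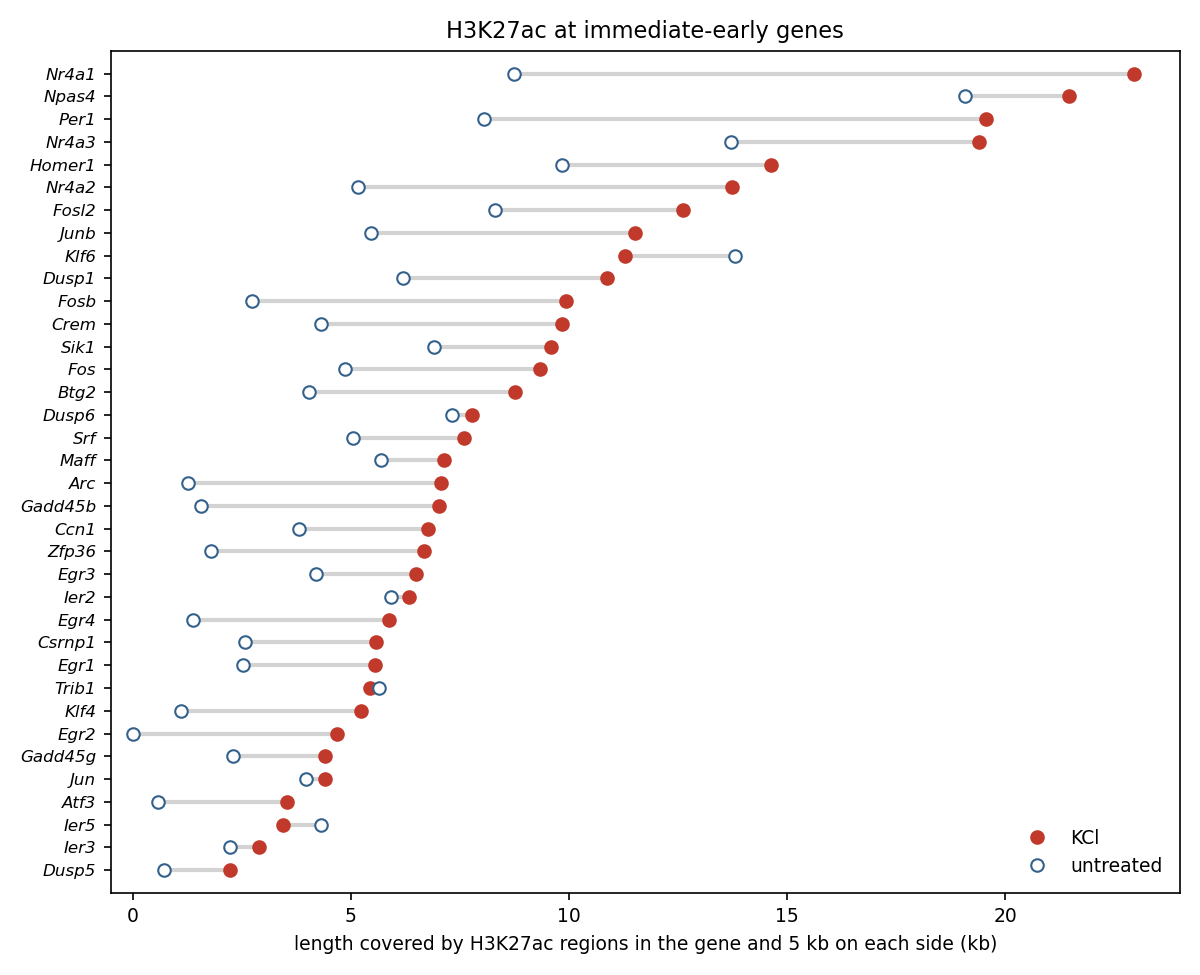
Length covered by H3K27ac regions (kb) in each of 36 immediate-early genes and 5 kb on each side, with KCl (filled red) and in untreated neurons (open blue), ordered by the KCl value. In 33 genes the KCl point lies to the right, and in Ier5, Klf6 and Trib1 to the left.

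Presence differed more often in a short window around the start site. RefSeq promoter windows of 250 bases before and 50 after the start were used for 29 of the 36 genes. A region touched the window in 28 of 29 with KCl and in 19 of 29 in untreated neurons. The 9 with one in the KCl list alone were Egr2, Egr4, Gadd45b, Gadd45g, Ier3, Jun, Junb, Klf4 and Klf6, and 8.73% of all 16457 genes were of this kind. None had one in the untreated list alone, where the share over all genes was 0.523%. At Junb the KCl region (chromosome 8, 84974541 to 84991769) ran across the window. The strongest untreated region (chromosome 8, 84979013 to 84980815) lay just outside the window. Absence from the window did not always mean absence from the gene. At Klf6, which starts at 5861489, the strongest untreated region began at 5861546. The strongest KCl region there began at 5861509, inside the window but also past the start, so this call rested on a small shift of an edge. In untreated neurons 95.7% of Klf6, 96.9% of Gadd45g, 95.8% of Junb and 88.9% of Jun was covered. Ier3 was covered over 56.1%, Gadd45b over 18.1%, and Egr2, Egr4 and Klf4 over 0% of their length.

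The 250 bases before the start are printed for 3 genes whose window had a KCl region alone and for 2 with one in both lists and a full cAMP response element, the CREB binding motif. They are RefSeq sequences of GRCm38.p6, on the strand of the gene. Egr2 lies at chr10:67535249-67535498 (plus strand, the most upstream of its starts in the promoter table, inside a gene annotated from 67534469), Junb at chr8:84978749-84978998 (minus), Gadd45b at chr10:80929841-80930090 (plus), Btg2 at chr1:134079156-134079405 (minus) and Dusp1 at chr17:26508473-26508722 (minus). Capitals mark the motif TGACGTCA.
Egr2: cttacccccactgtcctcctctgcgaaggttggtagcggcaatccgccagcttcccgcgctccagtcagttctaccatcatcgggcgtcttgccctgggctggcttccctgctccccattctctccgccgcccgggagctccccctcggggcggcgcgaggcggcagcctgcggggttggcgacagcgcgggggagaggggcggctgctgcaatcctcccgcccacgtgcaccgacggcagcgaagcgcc
Junb: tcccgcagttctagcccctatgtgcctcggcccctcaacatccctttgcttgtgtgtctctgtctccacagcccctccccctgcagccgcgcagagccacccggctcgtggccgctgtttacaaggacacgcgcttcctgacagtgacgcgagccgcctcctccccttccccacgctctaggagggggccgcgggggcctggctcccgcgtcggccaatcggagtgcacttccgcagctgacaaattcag
Gadd45b: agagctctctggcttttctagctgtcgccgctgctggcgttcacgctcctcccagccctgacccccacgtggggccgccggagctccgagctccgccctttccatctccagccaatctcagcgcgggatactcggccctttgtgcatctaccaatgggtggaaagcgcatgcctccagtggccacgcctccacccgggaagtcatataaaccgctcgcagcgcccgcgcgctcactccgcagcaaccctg
Btg2: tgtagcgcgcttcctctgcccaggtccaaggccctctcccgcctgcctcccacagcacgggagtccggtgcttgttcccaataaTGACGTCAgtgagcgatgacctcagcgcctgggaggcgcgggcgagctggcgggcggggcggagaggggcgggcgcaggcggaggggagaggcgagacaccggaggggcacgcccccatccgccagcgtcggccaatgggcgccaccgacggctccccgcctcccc
Dusp1: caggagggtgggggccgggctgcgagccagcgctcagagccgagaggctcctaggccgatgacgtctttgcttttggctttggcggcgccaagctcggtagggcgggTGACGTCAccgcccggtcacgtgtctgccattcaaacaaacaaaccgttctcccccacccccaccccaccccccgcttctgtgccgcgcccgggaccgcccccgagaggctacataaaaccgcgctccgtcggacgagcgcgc

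Across all promoter windows of 300 bases, searched on both strands, TGACGTCA was in 47 of 1792 windows with a KCl region alone (2.62%, 1.93 to 3.47). It was in 0 of 123 windows with an untreated region alone, which allows up to 2.95%. Windows with a region in both lists held it in 3.85%, windows with neither in 0.679% and all 20085 windows in 2.30%. The AP-1 motif TGANTCA, which does not overlap a full TGACGTCA, was in 4.35% of windows with a KCl region alone and in 5.69% with an untreated region alone. It was in 3.89% of those with both, 10.9% of those with neither and 7.06% of all. Windows differed in base composition, with a median GC share of 61.0% for KCl alone, 56.0% for untreated alone, 62.7% for both and 49.3% for neither. Of 40 windows of immediate-early genes 3 held TGACGTCA and 1 held TGANTCA. A match is only a run of letters.

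Delayed activity-regulated genes, the second wave, had a gene-end region in 16 of 19 with KCl and in 13 of 19 in untreated neurons, beside 58.2% with KCl and 53.6% in untreated neurons over all genes. The rule of 1.5 times was met with KCl by 8 of 19, beside 4730 of the 12528 genes able to meet it (22.9% of all genes). In untreated neurons it was met by 0, beside 3.14% of all genes. Those with a gene-end region in the KCl list alone were Nptx2, an AMPA receptor-clustering pentraxin, Ptgs2, the inducible cyclooxygenase, and Mmp9, a matrix protease. Nptx2 had 3.16 kb covered with KCl and 0.373 kb in untreated neurons, whereas Ptgs2 had 0.352 kb in a weak region with KCl and none in untreated neurons. Vgf, a neuropeptide precursor gene, had 8.27 kb with KCl and 5.36 kb in untreated neurons, and Pcsk1, a prohormone convertase gene, 4.04 kb with KCl and 1.85 kb in untreated neurons. Bdnf, the neurotrophin gene, had 13.9 kb with KCl and 10.6 kb in untreated neurons, short of the rule. Rgs4, a G-protein signalling regulator gene, had less with KCl, at 6.18 kb against 8.98 kb in untreated neurons.

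Of 20 calcium, CREB and MEF2 genes, 1 was covered longer with KCl by 1.5 times, beside 22.9% of all genes, and 1 longer in untreated neurons, beside 3.14%. Creb1 had 4.91 kb with KCl and 2.82 kb in untreated neurons. Hdac9, a class IIa deacetylase gene 869.516 kb long whose protein binds MEF2, had 43.7 kb with KCl and 79.9 kb in untreated neurons. The acetyltransferase genes Crebbp, at 14.6 kb with KCl and 9.997 kb in untreated neurons, and Ep300, at 3.94 kb with KCl and 2.895 kb in untreated neurons, did not meet it. Mef2c, a long gene with wide acetylation, had 66.1 kb with KCl in 29 regions and 68.6 kb in untreated neurons in 42.

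Synaptic genes differed in both directions. All 22 of 23 with a gene-end region had it in both lists. The rule of 1.5 times was met with KCl by 4 of 23 and in untreated neurons by 2, beside 22.9% and 3.14% of all genes. Among those covered longer with KCl by the rule were Vamp2, the vesicle SNARE gene, with 10.3 kb with KCl against 5.26 kb in untreated neurons, Rab3a and Shank1. Covered longer in untreated neurons were Rims1, an active zone gene, with 9.76 kb with KCl and 20.98 kb in untreated neurons, and Nlgn1, the neuroligin 1 gene, with 15.1 kb with KCl and 24.2 kb in untreated neurons. Vamp2 is 3.854 kb long and Nlgn1 911.059 kb. Vamp2 ends at 69092381 of chromosome 11 and the immediate-early gene Per1 starts at 69095108. The 5 kb flanks of Vamp2 and Per1 overlap, so some covered bases count for both. Of 12 GABAergic markers, 10 were covered longer with KCl and 0 in untreated neurons, beside 11385 and 2913 of all 20665 genes. The rule was met with KCl by 5 (Gad2, Slc32a1, Dlx1, Dlx2 and Lhx6), beside 4730 of the 12528 genes able to meet it (22.9% of all genes). The median covered length of the 12 markers was 6170.5 bp with KCl and 1859 bp in untreated neurons. Of 13 glutamatergic markers, 9 were covered longer with KCl and 4 in untreated neurons, beside the same counts over all genes. The rule was met by Bcl11b with KCl and by Tle4 in untreated neurons, with medians of 12778 bp with KCl and 12023 bp in untreated neurons. Of the housekeeping genes, all 15 were covered longer with KCl, beside 11385 of all 20665 genes. The rule was met with KCl by 7 of them, beside 4730 of the 12528 genes able to meet it (22.9% of all genes). Gapdh had 7.54 kb with KCl and 4.95 kb in untreated neurons.

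The 10 genes of each direction with the largest differences in covered length were 93.743 to 1973.06 kb long, which gives them more room for regions than most genes have. Those with the most extra length with KCl were Septin9, a cytoskeletal GTPase gene, with 71.3 kb with KCl and 21.9 kb in untreated neurons, and Tcf4, a bHLH factor gene, with 209 kb with KCl and 168 kb in untreated neurons. Chd2, a chromatin remodeller gene, had 42.1 kb with KCl and 17.5 kb in untreated neurons, with a gene-end region 29936 bp wide with KCl against 7359 bp in untreated neurons. Map1b, a microtubule protein gene, had 43.5 kb with KCl and 21.7 kb in untreated neurons, and Bcl11b, the subcerebral projection neuron factor gene, 67.2 kb with KCl and 44.6 kb in untreated neurons. Septin9 held 25 regions of the KCl list alone and 1 of the untreated list alone. Myo3b, Foxn3, Arpp21 and Ank3 were also among the first 10.

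Other long genes had the most extra length in untreated neurons. Cntn5, a contactin gene 1270.55 kb long, had 23.6 kb covered with KCl and 79.0 kb in untreated neurons. It held 5 regions of the KCl list alone and 65 of the untreated list alone. Sox5, a factor gene of deep-layer neurons, had 113 kb with KCl and 165 kb in untreated neurons, and Dlg2, which encodes PSD-93, 140 kb with KCl and 182 kb in untreated neurons. Opcml, a cell adhesion gene, had 55.6 kb with KCl and 96.1 kb in untreated neurons. Msra, a methionine sulfoxide reductase gene, had 216 kb with KCl in 106 regions and 269 kb in untreated neurons in 74, a larger number of regions over a shorter length with KCl. Arhgap15, Lama2, Exoc4, Ldb2 and Tnik completed the 10.

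**Figure D5:**
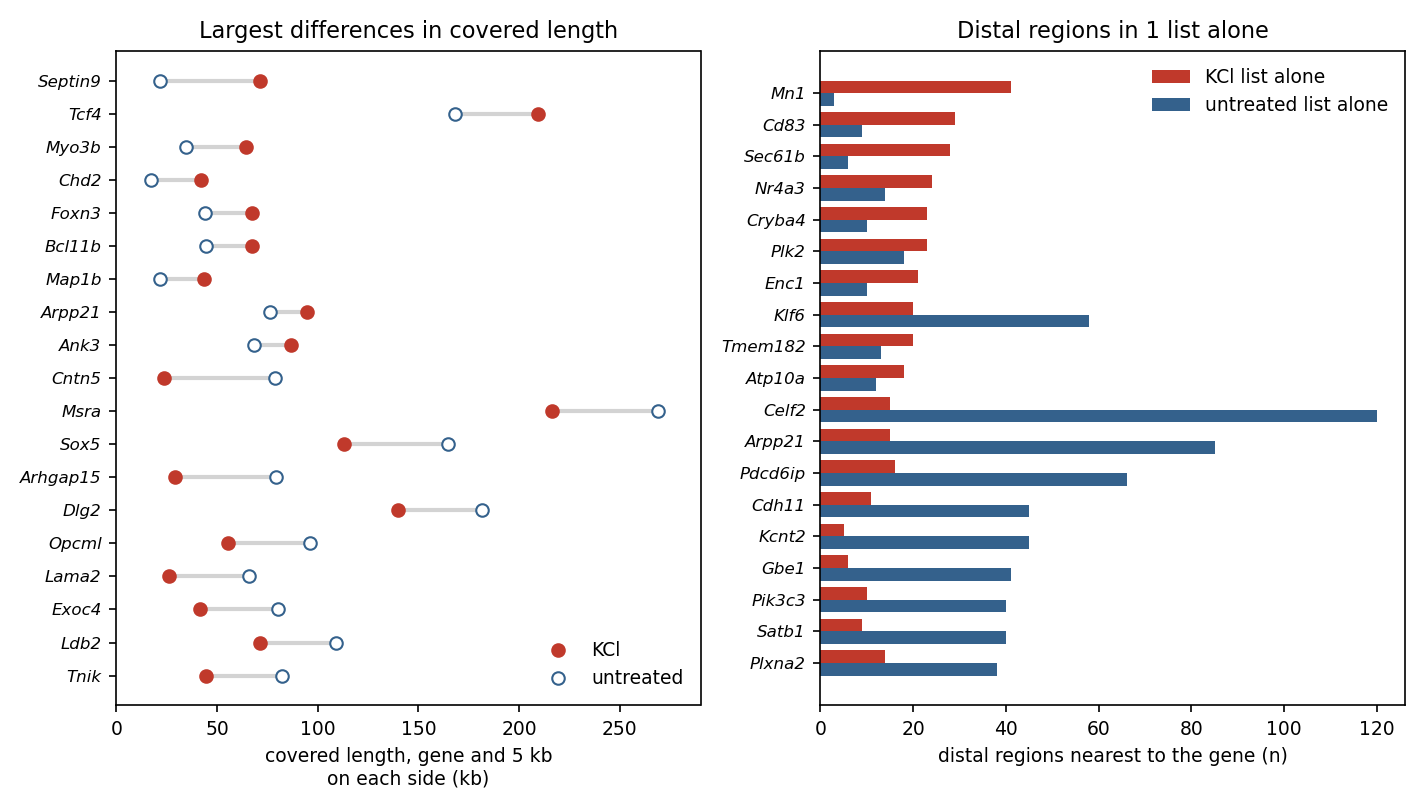
Left, covered length (kb) with KCl (filled red) and in untreated neurons (open blue) in named genes with the most extra length with KCl, then those with the most extra length in untreated neurons. Right, number of distal regions in the KCl list alone and in the untreated list alone nearest to the genes with the most of either. With KCl against untreated, Septin9 (71.3 against 21.9 kb) and Cntn5 (23.6 against 79.0 kb) lead on the left, and Mn1 (41 against 3) and Celf2 (15 against 120) on the right.

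Distal regions in 1 list alone were numerous near a few genes. Nearest to Mn1, a transcriptional coregulator gene, were 41 of the KCl list alone and 3 of the untreated list alone. Cd83, an immunoglobulin superfamily gene, had 29 in the KCl list alone and 9 in the untreated list alone, and Sec61b, a translocon gene, had 28 in the KCl list alone and 6 in the untreated list alone. Nr4a3 had 24 in the KCl list alone and 14 in the untreated list alone, and Enc1, an actin-binding ectoderm-neural cortex gene, 21 in the KCl list alone and 10 in the untreated list alone. Plk2, an activity-induced kinase gene, had 23 in the KCl list alone and 18 in the untreated list alone. On the untreated side, Celf2, an RNA-binding protein gene, had 15 in the KCl list alone and 120 in the untreated list alone. Arpp21 had 15 in the KCl list alone and 85 in the untreated list alone, although its own body was covered longer with KCl. Cdh11, a cadherin gene, had 11 in the KCl list alone and 45 in the untreated list alone, and Kcnt2, a potassium channel gene, 5 in the KCl list alone and 45 in the untreated list alone. Klf6 ranked among the first 10 on both counts, with 20 in the KCl list alone and 58 in the untreated list alone. Summed over the immediate-early list, 119 distal regions were in the KCl list alone and 110 in the untreated list alone, beside 6803 in the KCl list alone and 11678 in the untreated list alone over all genes. Bins of 1 Mb around Mn1 and Celf2 differed likewise. The bin at 111000001 to 112000000 of chromosome 5, which holds Mn1, had 248.9 kb covered with KCl and 179 kb in untreated neurons. The bin at 7000001 to 8000000 of chromosome 2, which takes in part of Celf2, had 200 kb with KCl and 345 kb in untreated neurons.

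The strongest regions of each list alone differed in place. Of the first 10 by −log10 q, 8 with KCl and 0 in untreated neurons touched a gene end. Taf8, a TFIID subunit gene (chromosome 17, 47501498 to 47502709), led the KCl list alone with a fold enrichment of 12.6. Egr2 (chromosome 10, 67535235 to 67539647) had 9.59, Prox1, a homeobox gene (chromosome 1, 190169420 to 190171880), 9.99, and Tinf2, a shelterin subunit gene (chromosome 14, 55680633 to 55681777), 10.3. The region near H1f5, a linker histone gene of the multigene histone cluster (chromosome 13, 21778269 to 21780895), had 11.8. Near-identical gene copies may take each other's reads there. The others lay at or near Rbms2, Cdca2, Sesn2, Tcte3 and Cep43, with the Sesn2 region distal and the Rbms2 region inside the gene. The gene-end regions at Tcte3 and Cdca2 were narrow, at 251 and 317 bp, and overlapped H3K4me1 in neither list. The untreated list alone was led by a region inside Fank1 (chromosome 7, 133813797 to 133814298) with a fold enrichment of 6.48, 380 bp from a KCl region. A distal region near Syndig1, an AMPA receptor-associated gene (chromosome 2, 149767897 to 149768659), had 6.35. The other 8, with a fold enrichment between 5.52 and 6.22, lay in or near Cdk5rap2, Cnih3, Supt20, Pcdh9, Ipo8, Nbea, Cflar and Rgs6. The KCl-alone region nearest to an untreated region among its 10 was 514 bp away, and that at Prox1 was 217449 bp away. Among the 10 of the untreated list alone, the gap to a KCl region ran from 154 bp (Cnih3) to 3835 bp (Nbea). Over all regions alone the median gap was 2331 bp in the KCl list and 2978 bp in the untreated list.

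H3K4me1, which marks enhancers whether active or not, was present under most of these regions. Of the regions of the KCl list alone, 75.6% (74.9 to 76.2) overlapped the H3K4me1 list of KCl neurons and 74.7% that of untreated neurons. Of the regions of the untreated list alone, 72.7% overlapped the KCl H3K4me1 list and 73.1% (72.6 to 73.7) the untreated one. Shared regions overlapped it in 95.3% with KCl and in 93.6% in untreated neurons. Narrower regions overlapped H3K4me1 less often in each class. Within widths of 500 to 1000 bp the KCl shares were 83.5% alone and 93.8% shared, and the untreated shares 78.9% alone and 91.6% shared. Gtf3c1, the DNA-binding subunit of the RNA polymerase III factor TFIIIC, lay at 14.5% of the KCl list alone with KCl and at 15.8% of the untreated list alone in untreated neurons. Shared regions overlapped Gtf3c1 in 47.8% with KCl and in 55.0% in untreated neurons. Within widths of 500 to 1000 bp the KCl shares were 17.7% alone and 26.4% shared, and the untreated shares 20.2% alone and 41.0% shared. The regions of the KCl list alone overlapped the KCl and untreated Gtf3c1 lists about equally, at 14.5% for the KCl list and 15.1% for the untreated list. The regions of the untreated list alone overlapped the KCl Gtf3c1 list in 7.97% and the untreated one in 15.8%. These Gtf3c1 lists held 57653 regions with KCl and 66174 in untreated neurons. Rpc155 was rare, at 0.847% of the KCl list alone with KCl and 2.51% of the untreated list alone in untreated neurons. Shared regions overlapped Rpc155 in 8.33% with KCl and in 21.8% in untreated neurons. The KCl list of Rpc155 was the shorter, with 4233 regions against 12511.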

How the data were processed

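Mouse cortical neurons were profiled by ChIP-seq for 4 antibodies in 2 conditions, giving 8 deposited peak lists. The submitters' processing notes name Bowtie2, MACS2 and the build GRCm38/mm10. Software versions, and any pooling of the 3 stated replicates, are not given in these sources. Input libraries were not analysed here. Each deposited score is the −log10 q multiplied by 10, and the deposited fold enrichment (a ratio), −log10 p-value and −log10 q-value are the authors' own per-region values, used for ranking and filtering inside a list and set side by side without adjustment between libraries. All regions passed a q of 0.05. Read depth is unknown from the lists.

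Regions of chromosomes 1 to 19 were intersected with a minimum overlap of 1 bp (python 3.11.15, numpy 2.4.6, pandas 2.3.3, scipy 1.17.1, matplotlib 3.10.9). Genes, strands and promoters came from RefSeq tables of GRCm38.p6. A region within 1 kb of a protein-coding gene end was placed at a gene end, otherwise inside a gene, otherwise distal. A percentile is the rank of −log10 q within its own list. Overlap and coverage code was tested on simulated intervals. The members and the 14 gene lists (200 of 201 symbols found) were chosen with earlier results of these data known. Genes named were the list members that differed, the immediate-early genes, the 10 strongest regions of each list alone, the 10 genes with the largest difference in covered length in each direction and the 10 with the most distal regions of each list alone. Predicted gene models were not named, and some named genes are not reported here. Alternatives were regions with q at most 1e-05, a 50% overlap of the shorter region, equal list lengths, joining regions under 500 bp apart, a width of 500 bp or more, a fold enrichment of 4 or more, a gene end window of 5 kb and the summit in place of the region. The number of unused per-sample columns was 0.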

Additional observations from a re-analysis of the deposited data

Results flagged for a closer look

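Chromosomes X and Y were outside the comparison and also held H3K27ac regions. Chromosome X had 742 regions over 0.948 Mb with KCl and 712 regions over 0.646 Mb in untreated neurons. Chromosome Y had 12 regions with KCl and 4 in untreated neurons. Both were noted because the count was higher in the KCl list, while on chromosomes 1 to 19 it was lower, at 57370 with KCl and 64770 in untreated neurons. The difference has no replicate check.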

How the results depend on the processing

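Covered length at gene ends was longer with KCl under every alternative tried for it, and in distal space shorter. These covered-length alternatives and the counts of immediate-early genes were added after seeing the data. The gene-end ratio lay between 1.27 and 1.37, the distal ratio between 0.833 and 0.899, the ratio in genes under 10 kb between 1.43 and 1.50 and that in genes of 300 kb or more between 0.78 and 0.84. Immediate-early genes covered at least 1.5 times as long with KCl numbered 24 or 25 of 36, against 4630 to 5053 of all genes. Counts of regions and shares of overlap moved more. With a q of 1e-05 or lower there were 29558 KCl and 34551 untreated regions, of median width 1491.5 and 1182 bp, and 77.2% and 70.1% were shared. The KCl list alone then held 6739 regions (5.86 Mb, 19.9% at gene ends, 2307 distal) and the untreated list alone 10322 (2.92% at gene ends, 5078 distal). H3K4me1 lay at 93.3% and 92.5% of them, Gtf3c1 at 28.98% and 36.7% and Rpc155 at 2.67% and 8.46%. With a width of 500 bp or more there were 36964 and 41097 regions of median width 1228 and 1060 bp, 73.7% and 68.8% shared. Those alone numbered 9718 (17.2% at gene ends, 3393 distal) in the KCl list and 12812 (6263 distal) in the untreated list. With a fold enrichment of 4 or more there were 18811 KCl and 19305 untreated regions of median width 2012 and 1680 bp, covering 46.3 and 41.0 Mb. The order of the counts alone then turned, with 4233 (6.03 Mb) in the KCl list alone and 3986 (6.25 Mb) in the untreated list alone, and so did that of the shared parts, 77.5% of KCl and 79.4% of untreated regions. The gene-end shares of the regions alone became 39.1% and 4.04%, with 1114 and 1986 distal, and 109 genes had a gene-end region in the untreated list alone. GABAergic markers had a gene-end region in 5 of 12 with KCl and 2 in untreated neurons at that setting, and in 5 in untreated neurons at a q of 1e-05. Progenitor markers had one in 1 and 2 of 7 in untreated neurons at these settings. Equal list lengths turned the same orders of the counts alone and shared parts, with 19737 in the KCl list alone and 18866 in the untreated list alone and 65.6% of KCl and 67.1% of untreated regions shared, and that of the median widths, 707 bp with KCl and 748 bp in untreated neurons. An overlap of 50% of the shorter region gave 63.2% and 57.6% shared, and 9.14% and 2.45% of the regions alone at gene ends. It gave H3K4me1 at 69.5% and 66.98%, Gtf3c1 at 10.8% and 8.15%, an order opposite to the reported one, and Rpc155 at 0.550% and 1.36%. Joining regions under 500 bp apart gave 69.6% and 63.4% shared and 9.38% of the KCl list alone at gene ends. The gene-end shares of the regions alone were 23.3% and 8.28% with a window of 5 kb, and 8.91% and 1.91% by the summit. Where an order turned, the cause was not tested. No paired analysis was possible because each condition has 1 list, and no replicate could be left out. The lists hold no read counts, so regions under the authors' q threshold cannot be seen and a difference in depth was not measured. The background levels given above were 6.40 fragments per position for the KCl list and 6.88 for the untreated list.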
